A study of Mus musculus with 6 samples.

Results

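The ephrins, semaphorins, netrins and Slits, together with the Eph, plexin, neuropilin, Robo and Unc5 receptors, form the guidance gene families followed here in sorted cells of the mouse testis. The genes were chosen by symbol alone: every probe set with 1 gene in the platform annotation whose symbol belongs to 1 of these 9 classes, keeping for each gene the probe set with the highest mean signal. That rule gave 68 genes out of 18193 measured: 13 Eph receptors, 8 ephrins, 20 semaphorins, 10 plexins, 2 neuropilins, 4 Robo receptors, 3 Slits, 4 Unc5 receptors and 4 netrins. The plexin class holds 1 member, Plxna4os1, that is annotated as antisense to Plxna4 and does not encode a receptor.

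RNA came from prepubertal mouse testes whose dissociated cells were split into fractions with magnetic beads according to their surface Thy1, a lipid-anchored glycoprotein. The Thy1-positive fraction (arrays P1, P2 and P3) was enriched for spermatogonial stem cells in transplantation assays, per the labels, and the Thy1-negative fraction (arrays N1, N2 and N3) was depleted of them. Each fraction has 3 Affymetrix arrays from independent donor preparations, with no genetic change or treatment named in the labels, and neither strain nor exact age given in the sources used here. Both fractions are mixtures of cell types, so fewer cells of a type and less RNA per cell cannot be told apart. Thy1 itself measured 6.05, 6.52 and 6.05 in P1, P2 and P3 and 2.35, 2.35 and 2.74 in N1, N2 and N3, so it rose at least 11.4-fold (measured difference 3.72, SE 0.19, adjusted p = 0.000984) and no array went against its label. All values are log2(intensity + 1), each difference is Thy1-positive minus Thy1-negative with its standard error (SE), and n = 3 arrays per fraction throughout.

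Guidance cues were first described as signals that attract or repel growing axons, and the same families direct cell sorting, adhesion and vessel growth outside the nervous system. Ephrins sit in the membrane and bind Eph receptor tyrosine kinases on neighbouring cells, with ephrin-A ligands held by a lipid anchor and ephrin-B ligands spanning the membrane. Semaphorins signal mainly through plexins, the secreted class 3 members usually with a neuropilin as co-receptor, while Slits bind Robo receptors and netrins bind Unc5 receptors or Dcc.

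Guidance genes divided into a smaller group that rose and a larger group that fell in Thy1-positive cells. With calls made at an adjusted p below 0.05, 11 of 68 rose and 20 fell, which is 16.2% and 29.4% of the members. Over all genes 18.5% were called higher and 14.4% lower. The median difference was 0.00 over the 68 genes and 0.01 over all genes. The 3 members past 10-fold, Sema5a, Sema7a and Plxnc1, were all lower, where 1.10% of all genes were lower by that much. Ligands contributed 5 higher and 12 lower genes of 35, and receptor classes, with Plxna4os1 counted, 6 higher and 8 lower of 33. The fractions' arrays did not overlap for 17 members that were higher and 22 that were lower, 25% and 32.4%, against 31.6% and 19.8% of all genes. The counts depend on the arrays: 6 rose without P3 and 6 without N3, while 11, 9, 10 and 10 fell without P1, P3, N1 and N3. The counts over all genes shrank too, from 3368 higher to 1350 without P3 and 1473 without N3. Lower genes went from 2628 to 1629, 1163, 1580 and 1302 without P1, P3, N1 and N3. With each array centred on its median, which put the median difference of all genes at 0.13, 30 rose and 20 fell. Over all genes 10436 rose and 2659 fell at that scaling.

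**Figure D1:**
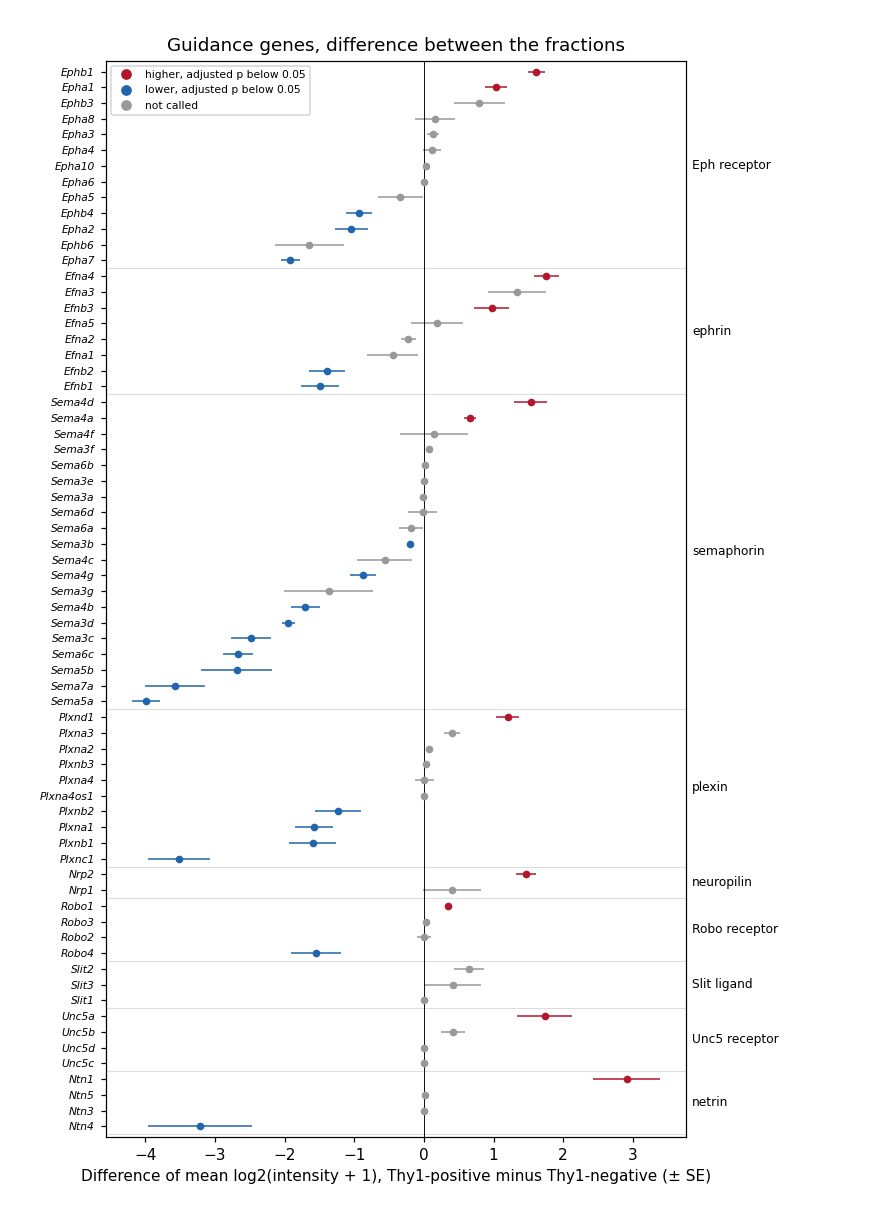
Difference between the fractions (x axis, Thy1-positive minus Thy1-negative, mean log2 units ± SE) for each of the 68 guidance genes (y axis), grouped by class. Points in red were called higher (11), in blue lower (20) and in grey not called (37); the points farthest from 0 on the left are Sema5a, Sema7a and Plxnc1, and the one farthest right is Ntn1.

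Many members carried little signal. For 19 of the 68 genes the mean was below the array median in both fractions, and 18 of these were not called, with means between 1.93 and 3.67 and differences between -0.34 and 0.13. They include Ntn3, Ntn5, Unc5c, Unc5d, Slit1, Robo2, Robo3, Sema3a, Sema3e, Sema6a, Sema6b, Epha3, Epha4, Epha5, Epha6, Epha10, Plxna2 and Plxna4os1. That these did not pass does not show that they did not differ. The 19 other members that were not called had clearer signal, with differences between -1.65 and 1.33. No called member changed sign under any of the alternative settings run.

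Upstream sequences are shown for the 3 members with the largest decreases and the 3 with the largest increases among called genes with 1 annotated start in the RefSeq promoter table (GRCm38.p6). Each is the 250 bases before the start, 5′ to 3′ on the gene's strand. Capitals mark the motifs searched on both strands, where neighbouring matches may overlap. The GC box was searched as the letters GGGCGG and the box known as CCAAT under its own letters. The TATA box was taken to be TATAAA, and the E-box of basic helix-loop-helix factors to be CACGTG. The letters AGATAA stood for a site of GATA factors, and AAGGTCA for the element bound by NR5A1. The first 3 belong to Sema5a (chr15:32244563-32244812, + strand), Sema7a (chr9:57939862-57940111, + strand) and Plxnc1 (chr10:94944846-94945095, - strand), which fell.
Sema5a: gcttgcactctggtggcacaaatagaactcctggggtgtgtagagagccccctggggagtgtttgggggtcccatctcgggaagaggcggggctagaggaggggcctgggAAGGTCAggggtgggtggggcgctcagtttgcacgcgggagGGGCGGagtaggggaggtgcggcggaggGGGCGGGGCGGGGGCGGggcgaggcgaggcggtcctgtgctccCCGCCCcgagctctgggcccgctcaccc
Sema7a: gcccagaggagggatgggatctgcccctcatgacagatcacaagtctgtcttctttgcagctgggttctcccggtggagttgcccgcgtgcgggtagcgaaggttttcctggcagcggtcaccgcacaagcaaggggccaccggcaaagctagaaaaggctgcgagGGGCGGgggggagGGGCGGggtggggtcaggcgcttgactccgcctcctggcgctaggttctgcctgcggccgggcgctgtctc
Plxnc1: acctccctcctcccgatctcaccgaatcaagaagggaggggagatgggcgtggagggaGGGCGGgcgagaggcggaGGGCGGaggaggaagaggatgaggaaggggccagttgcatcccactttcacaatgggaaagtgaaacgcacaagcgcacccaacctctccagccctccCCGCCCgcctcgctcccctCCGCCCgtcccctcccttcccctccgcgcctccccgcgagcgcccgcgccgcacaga
The next 3 belong to Efna4 (chr3:89338029-89338278, - strand), Unc5a (chr13:54949161-54949410, + strand) and Ephb1 (chr9:102354694-102354943, - strand), which rose.
Efna4: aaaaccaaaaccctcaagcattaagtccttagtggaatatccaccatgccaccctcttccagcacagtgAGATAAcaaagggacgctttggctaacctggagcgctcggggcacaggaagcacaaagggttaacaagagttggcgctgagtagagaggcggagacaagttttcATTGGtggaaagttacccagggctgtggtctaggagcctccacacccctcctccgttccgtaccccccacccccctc
Unc5a: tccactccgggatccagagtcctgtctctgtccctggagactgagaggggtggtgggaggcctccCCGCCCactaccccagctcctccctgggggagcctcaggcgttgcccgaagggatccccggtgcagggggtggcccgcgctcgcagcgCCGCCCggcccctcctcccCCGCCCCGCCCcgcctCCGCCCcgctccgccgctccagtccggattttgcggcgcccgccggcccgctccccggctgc
Ephb1: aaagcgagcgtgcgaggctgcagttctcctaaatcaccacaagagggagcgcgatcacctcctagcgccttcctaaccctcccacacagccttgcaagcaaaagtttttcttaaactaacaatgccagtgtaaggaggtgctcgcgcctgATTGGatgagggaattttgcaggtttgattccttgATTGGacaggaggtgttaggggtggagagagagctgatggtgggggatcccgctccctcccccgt
The Sema5a, Sema7a and Plxnc1 windows held 5, 2 and 4 GC boxes and no CCAAT or TATA box, and that of Sema5a also held an NR5A1 element. Unc5a held 5 GC boxes, whereas Efna4 and Ephb1 held 0 and instead had 1 and 2 CCAAT boxes. Over the 58 members with a window, GC boxes occurred in 57.1% of 14 windows of genes that rose, 77.3% of 22 windows of genes that fell and 73.7% of 38 windows of genes not called, against 32.7% of all 32851 windows. The median GC content was 56.2%, 67.8% and 64.4% in these sets, against 52.4% in all windows. These matches describe letters in a window and not bound sites.

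Netrin-1 showed the largest increase of any guidance gene, while netrin-4 fell. Ntn1, the secreted cue that attracts or repels axons depending on the receptor met, measured 6.74, 6.61 and 6.74 in Thy1-positive cells and 2.85, 4.62 and 3.89 in Thy1-negative cells. The Thy1-positive arrays were nearly equal and all above the Thy1-negative ones, which spread widely with N2 highest. The difference was 2.91 (SE 0.48, 7.53-fold, adjusted p = 0.0137). Ntn4, a netrin related to laminins and found in basement membranes, measured 3.04, 5.33 and 3.89 in Thy1-positive cells and 6.62, 8.17 and 7.11 in Thy1-negative cells. Here P2 was high among its fraction, N2 was highest of all 6, and the groups did not overlap. Ntn4 fell by 3.21 (SE 0.75, 9.27-fold lower, adjusted p = 0.0332). The call of Ntn1 was lost without P1 (2.89), P3 (2.89) or N3 (2.96), and that of Ntn4 held among the fits without 1 array only without P2 (-3.83). The second probe set of each gene was dim in both fractions, with means of 2.49 and 2.49 for Ntn1 and 2.77 and 3.26 for Ntn4 in Thy1-positive and Thy1-negative cells.

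Of the 4 Unc5 receptors of netrins, Unc5a rose and the others were not called. Unc5a, a repulsive and death-domain receptor for netrin-1, measured 4.07, 4.89 and 4.04 in Thy1-positive cells and 2.23, 3.25 and 2.33 in Thy1-negative cells. All Thy1-positive arrays were above all Thy1-negative ones, and within each fraction the array numbered 2 was highest. Its mean in Thy1-negative cells lay below the 25th percentile of the arrays, so with values below that level raised to it the gene was at least 2.77-fold higher (measured difference 1.74, SE 0.40, adjusted p = 0.0315). Of the fits without 1 array it passed only without N2 (2.06). Unc5b, which also has roles in vessel branching, did not pass at 5.31 ± 0.17 (SD) against 4.89 ± 0.27, with a difference of 0.41 (SE 0.17, adjusted p = 0.139). The netrin receptor gene Dcc, named after its values were seen, was dim, at 3.10, 3.09 and 3.10 in Thy1-positive cells and 3.10, 3.08 and 3.10 in Thy1-negative cells. Neo1, which encodes neogenin, a receptor for netrins and RGM proteins, fell by 2.73 (SE 0.31, adjusted p = 0.00604).

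**Figure D2:**
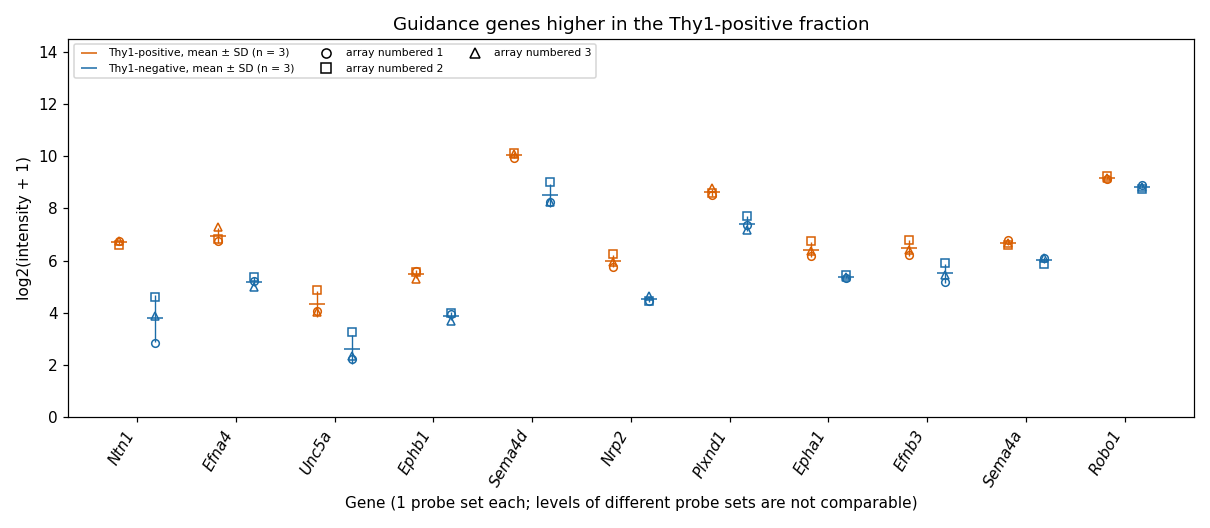
Signal on each array (y axis, log2(intensity + 1)) for the 11 guidance genes called higher, ordered by difference from Ntn1 to Robo1 (x axis). Orange symbols are Thy1-positive and blue Thy1-negative arrays, shapes give the array number and bars the mean ± SD (n = 3). In Ntn1 and Unc5a the Thy1-negative array numbered 2 lies nearest to the Thy1-positive ones.

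Semaphorins formed the class with the largest counts, with 2 of 20 genes higher, 9 lower and 9 not called. That is 10% higher and 45% lower, against 18.5% and 14.4% of all genes. Sema5a, a transmembrane semaphorin with thrombospondin repeats, measured 5.85, 5.37 and 6.02 in Thy1-positive cells and 9.80, 9.54 and 9.87 in Thy1-negative cells. The gap between the groups was many times the spread within either, and Sema5a was 15.9-fold lower (-3.99, SE 0.20, adjusted p = 0.000965). Its paralogue Sema5b measured 7.16, 8.48 and 7.03 in Thy1-positive cells and 10.80, 9.78 and 10.16 in Thy1-negative cells. There P2 stood above P1 and P3, without reaching any Thy1-negative array. Sema5b was 6.44-fold lower (-2.69, SE 0.51, adjusted p = 0.0195), a call lost without P1 (-2.49), P3 (-2.42), N1 (-2.41) or N3 (-2.73). Another probe set of Sema5a differed by -2.11 and another of Sema5b by -3.90, both called lower over all probe sets.

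Sema7a and its receptor Plxnc1 fell together, and by similar amounts. Sema7a, a semaphorin held by a lipid anchor that binds plexin-C1 and integrins, measured 5.87, 7.21 and 6.30 in Thy1-positive cells and 10.33, 9.55 and 10.23 in Thy1-negative cells. The groups were well apart, with P2 the highest Thy1-positive and N2 the lowest Thy1-negative array. Sema7a was 11.97-fold lower (-3.58, SE 0.43, adjusted p = 0.00690). Its second probe set was dim in both fractions and was not called (-0.90). Plxnc1 measured 7.62, 8.94 and 7.78 in Thy1-positive cells and 11.92, 11.18 and 11.80 in Thy1-negative cells. The same arrays, P2 and N2, lay nearest to the other fraction. Plxnc1 was 11.5-fold lower (-3.52, SE 0.44, adjusted p = 0.00750). Of its 5 further probe sets, 4 were called lower with differences between -3.76 and -4.34, and the remaining one was dim. The calls of Sema7a and Plxnc1 held in all 6 fits without 1 array.

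Among the secreted class 3 semaphorins, 3 of 7 fell and 0 rose at the probe set kept (limma, with 0 higher at an unadjusted p under 0.05 either). The share that fell was 42.9%, against 14.4% of all genes. Sema3c, which acts through neuropilins and is known for its part in heart and vessel development, measured 8.74, 9.73 and 8.98 in Thy1-positive cells and 11.80, 11.49 and 11.62 in Thy1-negative cells. The Thy1-negative arrays were close together and far above all Thy1-positive ones. Sema3c was 5.60-fold lower (-2.49, SE 0.29, adjusted p = 0.00652), and its other probe set differed by -2.38. The transmembrane Sema6c was at low signal in Thy1-positive cells, at 1.94, 2.40 and 1.95, against 4.99, 4.41 and 4.90 in Thy1-negative cells. With the 25th percentile as floor it was at least 4.26-fold lower (measured difference -2.67, SE 0.22, adjusted p = 0.00331). The other semaphorins that fell were named after their values were seen: Sema3d (-1.95, SE 0.09), Sema4b (-1.70, SE 0.20), Sema4g (-0.87, SE 0.19) and Sema3b (-0.20, SE 0.01). Sema3b was dim in both fractions, at 3.15 ± 0.01 (SD) against 3.35 ± 0.01. Its call thus rests on a small difference near background. Sema4g lost its call in 5 of the 6 fits without 1 array, the exception being P2, with differences between -0.73 and -0.94.

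**Figure D3:**
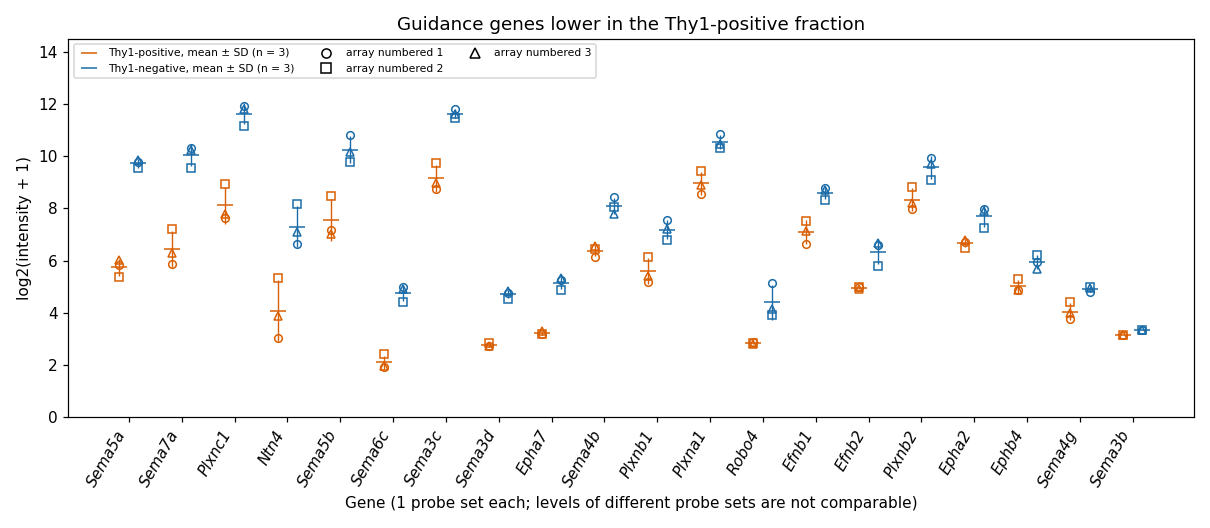
Signal on each array (y axis, log2(intensity + 1)) for the 20 guidance genes called lower, ordered by difference from Sema5a to Sema3b (x axis). Orange symbols are Thy1-positive and blue Thy1-negative arrays, shapes give the array number and bars the mean ± SD (n = 3). For Sema7a, Plxnc1, Sema5b and Sema3c the Thy1-positive array numbered 2 is the highest of its fraction.

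Class 4 semaphorins went both ways, with Sema4d and Sema4a higher and Sema4b and Sema4g lower. Sema4d, also known as CD100 and abundant on T lymphocytes, measured 9.92, 10.13 and 10.07 in Thy1-positive cells and 8.25, 9.01 and 8.26 in Thy1-negative cells. N2 was again the Thy1-negative array nearest to the other fraction, and the groups did not overlap. Sema4d rose 2.89-fold (1.53, SE 0.24, adjusted p = 0.0123), and its call was lost without P3 (1.52) or N3 (1.41). Sema4a, a semaphorin of immune cells and of the retina, measured 6.78, 6.59 and 6.67 in Thy1-positive cells and 6.08, 5.88 and 6.10 in Thy1-negative cells. This difference was small and even, at 1.58-fold (0.66, SE 0.08, adjusted p = 0.00775). Its probe set is of a kind that may bind related transcripts, and the other, more specific one differed by 1.42.

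For some semaphorins the result depended on the probe set. The called guidance genes had 39 further probe sets, of which 12 were called the same way, 0 the opposite way and 27 not called, 23 of these dim in both fractions. Sema3f, a ligand of neuropilin-2, differed by 0.08 at the probe set kept, which may bind related transcripts, and was not called. A second probe set of Sema3f measured 5.71, 5.71 and 5.72 in Thy1-positive cells and 3.43, 4.47 and 3.11 in Thy1-negative cells, a difference of 2.04 (SE 0.38, adjusted p = 0.0252 over all probe sets). Sema6d measured 9.98 ± 0.37 (SD) in Thy1-positive cells, against 10.00 ± 0.13 in Thy1-negative cells at the probe set kept, yet 6.62, 7.31 and 6.56 against 6.02, 5.49 and 5.29 at another (1.23, SE 0.30, adjusted p = 0.0491 over all probe sets). These were the 2 probe sets of uncalled members that were called, and they were named after their values were seen. Sema4f was not called at 6.63 ± 0.06 (SD) in Thy1-positive cells, against 6.49 ± 0.92 in Thy1-negative cells, where N2 at 7.51 lay above all other arrays. Sema3g was lower on every Thy1-positive array without passing, at 3.42 ± 0.21 (SD) against 4.79 ± 1.17, and Sema4c overlapped, at 6.09 ± 0.34 against 6.65 ± 0.65.

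Plexins are the receptors that carry the semaphorin signal. Of the 10 members of this class, 4 fell and 1 rose, 40% and 10%, against 14.4% and 18.5% of all genes. The antisense Plxna4os1, which encodes no receptor, is counted in the class and was not called. Besides Plxnc1, the genes that fell were Plxna1, Plxnb1 and Plxnb2. Plxna1, a partner of neuropilins, measured 8.57, 9.44 and 8.91 in Thy1-positive cells and 10.84, 10.32 and 10.48 in Thy1-negative cells, and was 2.98-fold lower (-1.58, SE 0.28, adjusted p = 0.0158). Plxnb1, the receptor for Sema4d, measured 5.19, 6.15 and 5.42 in Thy1-positive cells and 7.56, 6.81 and 7.20 in Thy1-negative cells (-1.60, SE 0.34, adjusted p = 0.0254). Plxnb1 thus fell where its ligand Sema4d rose. Plxnb2, a further receptor for class 4 semaphorins, measured 7.97, 8.82 and 8.22 against 9.95, 9.08 and 9.69 (-1.23, SE 0.34, adjusted p = 0.0492), and it missed the threshold once every probe set was tested (adjusted p = 0.0642). In all 3 genes P2 was the highest Thy1-positive and N2 the lowest Thy1-negative array. Plxna1 lost its call without P3 (-1.54), N1 (-1.43) or N3 (-1.61). Plxnb1 and Plxnb2 lost theirs without P1 (-1.40 and -1.05), P3 (-1.52 and -1.18), N1 (-1.41 and -1.05) or N3 (-1.59 and -1.18). The second probe set of Plxna1 differed by -0.25 and that of Plxnb1 by -0.01, and neither was called.

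Plxnd1, the plexin known for vessel patterning as the receptor of Sema3e, was the exception. It measured 8.51, 8.58 and 8.77 in Thy1-positive cells and 7.36, 7.72 and 7.17 in Thy1-negative cells. The groups did not overlap, and Plxnd1 rose 2.31-fold (1.21, SE 0.17, adjusted p = 0.00918) in every fit without 1 array. Its ligand Sema3e was dim at 2.91 ± 0.01 (SD) in Thy1-positive cells, against 2.90 ± 0.01 in Thy1-negative cells. Plxna3, which pairs with neuropilin-2, missed the threshold at 6.04 ± 0.10 (SD) against 5.64 ± 0.18 (0.40, SE 0.11, adjusted p = 0.0512), and Plxnb3 differed by 0.02 (SE 0.02). The second probe set of Plxna3 differed by more, at 1.23 (SE 0.32), without being called (limma, adjusted p = 0.0588 over all probe sets). Plxna4 was level at 4.37 ± 0.23 (SD) in Thy1-positive cells, against 4.36 ± 0.14 in Thy1-negative cells.

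Of the neuropilins, which lend class 3 semaphorins and VEGF their binding site, Nrp2 rose and Nrp1 was not called. Nrp2 measured 5.77, 6.25 and 5.93 in Thy1-positive cells and 4.45, 4.47 and 4.64 in Thy1-negative cells. The groups were separate by more than their spread, and Nrp2 rose 2.76-fold (1.47, SE 0.14, adjusted p = 0.00459). Its 3 other probe sets were not called, with differences of 0.01, 0.19 and 0.76. Nrp1 measured 8.71, 9.72 and 9.30 in Thy1-positive cells and 9.14, 8.17 and 9.22 in Thy1-negative cells. These arrays overlapped, and the difference of 0.40 (SE 0.41, adjusted p = 0.537) did not pass.

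Ephrins, the ligands of the Eph receptors, went in opposite directions within the B class. Efnb1, which is X-linked and known for cell sorting at tissue boundaries, measured 6.63, 7.54 and 7.15 in Thy1-positive cells and 8.77, 8.34 and 8.70 in Thy1-negative cells. Efnb2, the ephrin of arterial endothelium, measured 4.98, 4.98 and 4.91 in Thy1-positive cells and 6.58, 5.79 and 6.67 in Thy1-negative cells. Both genes lay lower on every Thy1-positive array, with N2 the closest Thy1-negative array in each. Efnb1 was 2.82-fold lower (-1.50, SE 0.27, adjusted p = 0.0176) and Efnb2 2.62-fold lower (-1.39, SE 0.26, adjusted p = 0.0189). Efnb3 in contrast measured 6.23, 6.80 and 6.42 in Thy1-positive cells and 5.20, 5.90 and 5.44 in Thy1-negative cells, and rose 1.96-fold (0.97, SE 0.25, adjusted p = 0.0410). It missed the threshold once every probe set was tested (adjusted p = 0.0538). Efnb1 lost its call without P3 (-1.52), N1 (-1.41) or N3 (-1.45). Of the fits without 1 array, Efnb2 and Efnb3 passed only without N2 (-1.67 and 1.16). Over all probe sets, a further probe set of Efnb1 was called lower (-1.83), while another with clear signal was not (-1.12). The further probe sets of Efnb2 were dim and not called, with differences between -1.12 and 0.02.

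In the ephrin-A class Efna4 was the gene called. It measured 6.76, 6.84 and 7.27 in Thy1-positive cells and 5.22, 5.37 and 5.01 in Thy1-negative cells, with no overlap and a gap wider than either group's range. Efna4 rose 3.38-fold (1.76, SE 0.18, adjusted p = 0.00503) and kept its call without any 1 array. On chromosome 3 in the RefSeq annotation Efna3 lies next to Efna4 and Efna1 next to Efna3, with 0 coding genes between the genes of either pair. Efna3 measured 6.82, 7.19 and 7.19 in Thy1-positive cells and 5.21, 6.60 and 5.40 in Thy1-negative cells, where N2 stood apart (1.33, SE 0.42, adjusted p = 0.0719). Efna1 differed by -0.45 (SE 0.37) with overlapping arrays, and neither Efna3 nor Efna1 was called. Efna2 (8.77 ± 0.15 SD against 8.99 ± 0.13) and Efna5 (7.48 ± 0.25 against 7.29 ± 0.65) were not called.

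Among the 13 Eph receptors, 2 rose, 3 fell and 8 were not called. That is 15.4% higher and 23.1% lower, against 18.5% and 14.4% of all genes. Ephb1, a receptor of ephrin-B ligands, measured 5.59, 5.57 and 5.31 in Thy1-positive cells and 3.941, 3.997 and 3.694 in Thy1-negative cells. The arrays of each fraction lay close together, and Ephb1 rose 3.06-fold (1.61, SE 0.12, adjusted p = 0.00269), in every fit without 1 array as well. Epha1 measured 6.17, 6.75 and 6.35 in Thy1-positive cells and 5.34, 5.44 and 5.37 in Thy1-negative cells, and rose 2.05-fold (1.04, SE 0.16, adjusted p = 0.0123). Its call was lost without P3 (1.07) or N3 (1.03). Its other probe sets were dim, with differences near 0.

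Epha7, Epha2 and Ephb4 fell. Epha7, which binds ephrin-A ligands and is known from the developing brain, measured 3.20, 3.19 and 3.30 in Thy1-positive cells and 5.24, 4.87 and 5.32 in Thy1-negative cells. The Thy1-positive arrays were below the array median and nearly equal, and Epha7 was 3.78-fold lower (-1.92, SE 0.14, adjusted p = 0.00234). Its other probe sets were dim and not called, with differences between -0.28 and 0.01. Epha2, which has been reported as a surface marker of undifferentiated spermatogonia, measured 6.71, 6.49 and 6.79 in Thy1-positive cells and 7.996, 7.232 and 7.892 in Thy1-negative cells. It was thus lower in the fraction enriched for stem cells, by 2.06-fold (-1.04, SE 0.24, adjusted p = 0.0313), and of the fits without 1 array it passed only without N2 (-1.28). Ephb4, the venous receptor of ephrin-B2, measured 4.88, 5.28 and 4.88 in Thy1-positive cells and 5.94, 6.20 and 5.67 in Thy1-negative cells (-0.93, SE 0.19, adjusted p = 0.0232). Ephb4 and its ligand gene Efnb2 therefore fell together, although the call of Ephb4 was lost without P1 (-0.86), P3 (-0.86) or N1 (-0.93). Ephb6, whose kinase domain is inactive, measured 5.13, 6.94 and 6.07 against 7.61, 7.86 and 7.62. It was lower on every Thy1-positive array but did not pass, with those arrays wide apart (-1.65, SE 0.49, adjusted p = 0.0632). Ephb3 overlapped between the fractions, at 4.72 ± 0.48 (SD) against 3.92 ± 0.48. Epha8 was not called, at 5.78 ± 0.04 (SD) in Thy1-positive cells, against 5.62 ± 0.52 in Thy1-negative cells.

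Of the Slits and their Robo receptors, Robo1 was slightly higher, Robo4 was lower and 0 Slits were called (limma; Slit2 alone, 1 of 3, at an unadjusted p under 0.05). Robo1, a receptor of repulsive Slit signals, measured 9.13, 9.25 and 9.17 in Thy1-positive cells and 8.89, 8.76 and 8.84 in Thy1-negative cells. The separation was complete but narrow, at 1.28-fold (0.35, SE 0.05, adjusted p = 0.00986). Robo4, a Robo receptor of endothelial cells, measured 2.87, 2.86 and 2.82 in Thy1-positive cells, near background, and 5.16, 3.90 and 4.14 in Thy1-negative cells (-1.55, SE 0.36, adjusted p = 0.0324). Its call held without N1 (-1.17) or N2 (-1.80) and was lost without any other array. Slit2 measured 8.10, 8.35 and 8.15 in Thy1-positive cells and 7.70, 7.13 and 7.85 in Thy1-negative cells. It was higher on every Thy1-positive array, though not past the threshold (0.64, SE 0.22, adjusted p = 0.0850). Slit3 overlapped between the fractions, at 7.90 ± 0.72 (SD) against 7.49 ± 0.26.

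Genes that relay guidance signals inside the cell, or act as co-receptors, were followed in a list of 64, of which 61 were measured. In Thy1-positive cells 12 of these rose and 19 fell, with a median difference of -0.09, beside 18.5% higher and 14.4% lower over all genes. The count of higher genes was 6, 7 and 7 without P3, N1 and N3, and that of lower genes 10 without P3 and 10 without N3. Over all genes 1350, 1909 and 1473 were higher without P3, N1 and N3, and 1163 and 1302 lower without P3 and N3. Of 15 co-receptors and further ligands, 3 fell and 0 rose (limma; at an unadjusted p under 0.05 4 were lower and 0 higher). Flrt1, an adhesion protein that binds Unc5 receptors, measured 4.25, 4.16 and 4.06 in Thy1-positive cells and 8.60, 7.91 and 8.63 in Thy1-negative cells, and was 18.7-fold lower (-4.22, SE 0.22, adjusted p = 0.00111). Its relative Flrt2 was 2.82-fold lower (-1.50, SE 0.23), a call lost without P3 (-1.48) or N3 (-1.38). With Neo1, given above, these were the 3 that fell.

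Regulators of small GTPases, which turn receptor signals into changes of the actin skeleton, went both ways, 4 higher and 7 lower of 17. These shares were 23.5% and 41.2%, against 18.5% and 14.4% of all genes. Chn2, which encodes a chimaerin that inactivates Rac, measured 8.17, 8.27 and 8.17 in Thy1-positive cells and 3.54, 4.40 and 4.38 in Thy1-negative cells, and rose 17.1-fold (4.09, SE 0.27, adjusted p = 0.00193). Vav3, an exchange factor downstream of Eph receptors and of immune receptors, rose 4.11-fold (2.04, SE 0.25) and Farp2, which links plexin-A to Rac, rose 2.00-fold (1.00, SE 0.25). Srgap3, a GTPase-activating protein of the Slit-Robo pathway, was 9.64-fold lower (-3.27, SE 0.43). Farp1 (-1.88, SE 0.38) and Arhgef12, a GTPase exchange factor bound by plexin-B (-1.64, SE 0.23), also fell. The call of Farp2 was lost in 5 of 6 fits without 1 array, all but that without N2, and the call of Farp1 without P1 (-1.70), P3 (-1.86), N1 (-1.62) or N3 (-1.80).

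Of 14 adaptors and kinases measured, 5 rose and 2 fell, 35.7% and 14.3%, against 18.5% and 14.4% of all genes. Nck1, an adaptor between receptors and the actin machinery, rose 2.54-fold (1.35, SE 0.18), the tyrosine kinase genes Fes and Abl2 rose 2.32-fold (1.21, SE 0.16) and 2.07-fold (1.05, SE 0.15), and the other 2 that rose differed by less. Grip1, a scaffold that binds ephrin-B, was 4.87-fold lower (-2.28, SE 0.15), and the adaptor gene Crk 2.00-fold lower (-1.001, SE 0.07). Of 13 cytoskeletal genes, 2 rose and 6 fell, 15.4% and 46.2%, and collapsin response mediators were in both sets. Dpysl4 measured 3.16, 6.70 and 4.53 in Thy1-positive cells and 10.09, 9.98 and 10.06 in Thy1-negative cells, so its Thy1-positive arrays were far apart and all lower (38.1-fold, -5.25, SE 0.96, adjusted p = 0.0176). Dpysl2 (-1.89, SE 0.35) and the actin regulator Evl (-1.81, SE 0.41) fell too, while Crmp1 rose 2.79-fold (1.48, SE 0.13) and Vasp 1.55-fold (0.63, SE 0.17). Calls were lost in 3 fits without 1 array for Dpysl4, in 4 for Dpysl2, and in 5 each for Evl and Vasp. The proteases that shed ephrins differed in direction, with Adam10 1.93-fold lower (-0.95, SE 0.09) and Adam17 1.19-fold higher (0.25, SE 0.06). Adam17 was called in 1 of the 6 fits without 1 array.

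**Figure D4:**
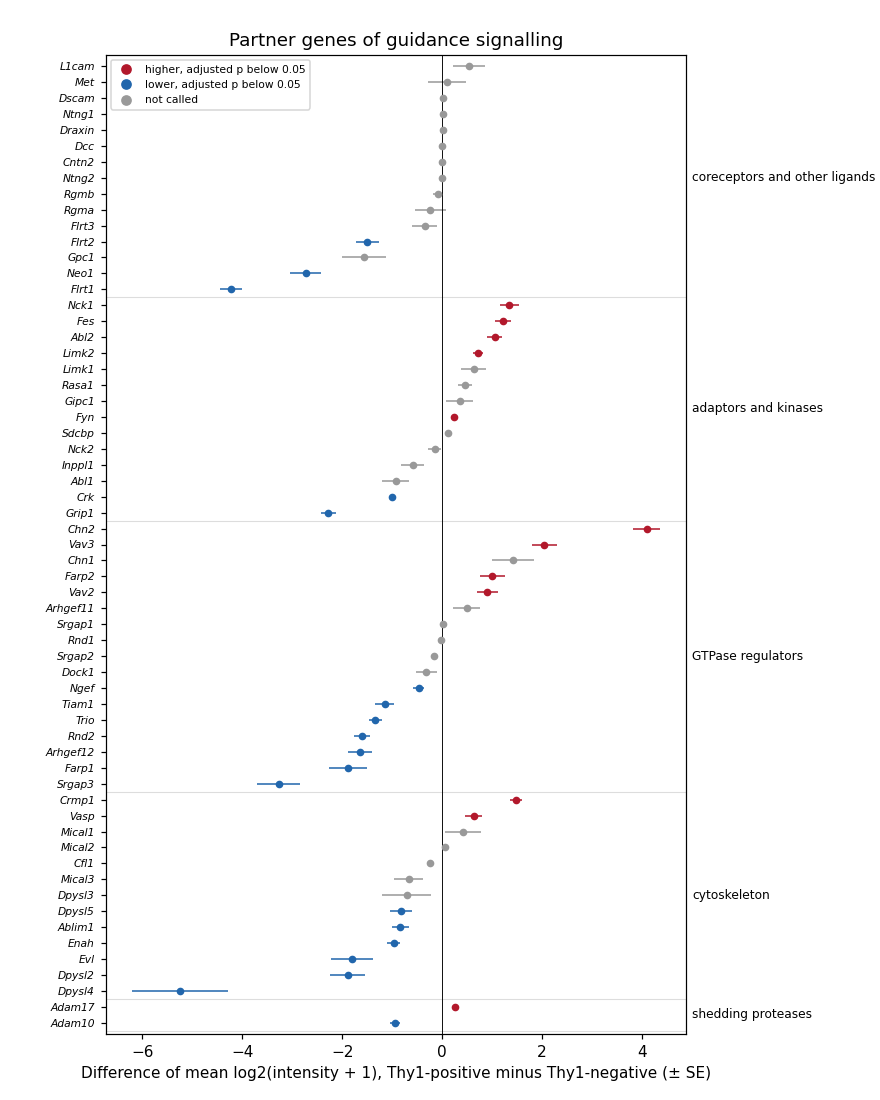
Difference between the fractions (x axis, Thy1-positive minus Thy1-negative, mean log2 units ± SE) for the 61 measured partner genes (y axis), in 5 groups. Red points were called higher (12), blue lower (19) and grey not called; Chn2 lies farthest right at 4.09 and Dpysl4 farthest left at -5.25.

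Markers of other cell types moved with the fractions on the same arrays. Macrophage markers were higher for 14 of 14 genes, with list means of 9.23, 9.64 and 9.50 in P1, P2 and P3 against 3.43, 3.36 and 3.35 in N1, N2 and N3, and summed intensities of 14532 to 21241 against 165 to 197. T lymphocyte markers rose for 3 of 7 genes, with summed intensities of 423 to 449 against 56.8 to 72.2, and markers of undifferentiated spermatogonia for 11 of 12, with 18475 to 20323 against 2867 to 5190. Sertoli cell markers fell for 12 of 13 genes, with list means of 6.14, 7.70 and 6.26 in P1, P2 and P3 against 10.68, 10.29 and 10.61 in N1, N2 and N3, and summed intensities of 5570 to 22019 against 93435 to 118217. No marker was listed at 0, although low signal was seen for Amh and Fshr in the Thy1-positive fraction and for Cd68, C1qa, C1qc and Cd14 in the Thy1-negative one. Among the other lists, 1 peritubular myoid, 2 endothelial and 3 erythroid markers had low signal in the Thy1-positive fraction. In the Thy1-negative fraction 2 T lymphocyte, 1 endothelial and 2 erythroid markers did. Peritubular myoid markers fell for 5 of 7 genes, with summed intensities of 1735 to 2228 against 12930 to 14792. Endothelial markers, beside which the lower Robo4 stands, gave 1 higher gene (Tek, 1.28) and 1 lower (Kdr, -1.95) of 8, with summed intensities of 103 to 178 against 98.2 to 178. General germ cell markers rose for 5 of 10 genes, with summed intensities of 45336 to 47129 against 11859 to 32383. Leydig cell markers fell for 2 of 4 genes (2309 to 3732 against 4801 to 9694), interstitial mesenchyme markers for 1 of 7 (13912 to 34144 against 24875 to 32994) and erythroid markers for 2 of 4 (21.1 to 23.4 against 97.7 to 224). The part of these cell types in the differences of the guidance genes was not tested.

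**Figure D5:**
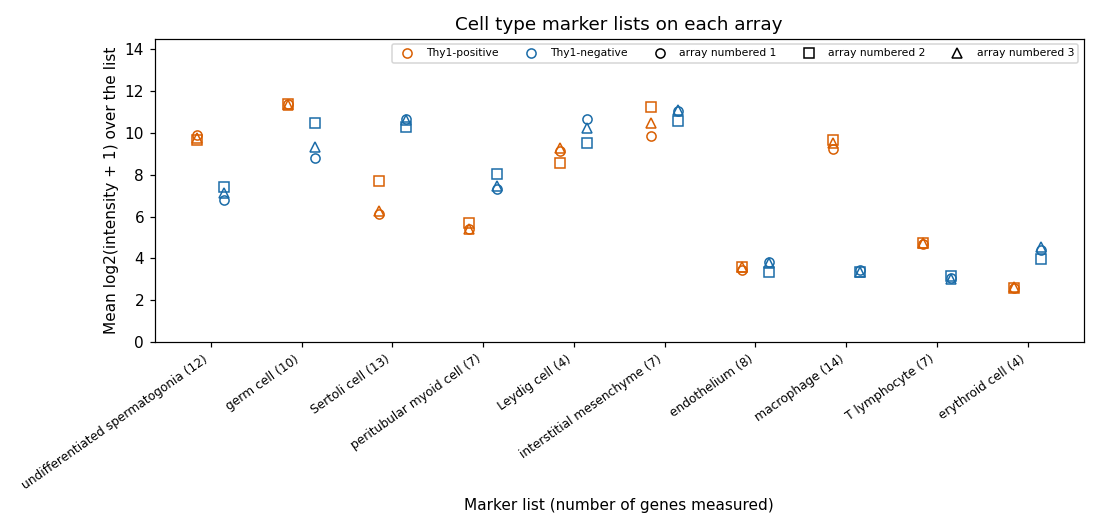
Mean signal of each cell type marker list (y axis, log2(intensity + 1)) on each array, with the number of genes measured in brackets (x axis). Orange symbols are Thy1-positive and blue Thy1-negative arrays, and shapes give the array number. Macrophage lists lie at 9.23 to 9.64 against 3.35 to 3.43, and the Thy1-positive array numbered 2 has the highest Sertoli mean of its fraction, at 7.70.

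Among the called genes, N2 was often the array of its fraction nearest to the other one, and so was P2 among the genes that fell. N2 was the Thy1-negative array closest to the Thy1-positive ones in 8 of the 11 guidance genes that rose and 16 of the 20 that fell, 72.7% and 80.0%, against 71.1% and 78.2% of all genes called in those directions. P2 was the Thy1-positive array closest to the Thy1-negative ones in 13 of the 20 that fell, 65.0% against 67.4% of all lower genes, and in 2 of the 11 that rose, 18.2% against 53.5% of all higher genes. N2 also had the highest germ cell marker mean of its fraction, 10.46 against 8.79 and 9.32 in N1 and N3. Without both arrays numbered 2, 12 guidance genes rose and 19 fell, whereas without both numbered 3, which leaves P1, P2, N1 and N2, 1 rose and 0 fell, a setting under which 149 and 61 of all genes were called.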

How the data were processed

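The deposited table holds linear intensity values for 45101 probe sets on 6 Affymetrix arrays, made with GCRMA per the submitters' processing notes, with no version given. The labels instead describe Microarray Suite signals scaled to a mean of 150 after trimming 2% at each end. The trimmed means here were 287 to 293, so the table does not carry that scaling, and which procedure made the values is unsettled. Array medians were 15.8 to 16.1 in the Thy1-positive fraction and 17.2 to 17.6 in the Thy1-negative one. The ratios of 3' to 5' control probe sets for Actb were 1.82 to 2.33 against 1.88 to 2.05. For Gapdh they were 0.736 to 0.772 against 0.839 to 1.04, without overlap. P2 and N2 had the highest of both ratios in their fractions. The part of RNA quality or array level in the differences was not tested.

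After 64 control probe sets were left out, 34945 of 45037 had 1 gene in the platform annotation, 932 several and 9160 none. For each of 18193 genes the probe set with the highest mean was kept, without a filter on low values. Tests used log2(intensity + 1), and the arrays were not normalized again. The fractions were compared with limma 3.58.1 (R 4.3.3) without blocking, with Benjamini-Hochberg adjustment over all genes, and called at an adjusted p below 0.05. Low signal means a fraction's mean below the 25th percentile of the arrays, and dim a mean below the array median. A fold written "at least" uses values raised to that percentile. With 3 arrays per fraction, their number limits the precision. The fit was tested on simulated data. All 68 guidance genes matched RefSeq (GRCm38.p6) by Entrez identifier, and 58 had a promoter window.

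The guidance genes, partner genes and marker lists were chosen with earlier results of these data known. Genes were named by rule: in each of the 9 classes, the called genes in each direction up to the 5 largest differences and the 2 uncalled genes with the highest mean, and in each partner group the 3 largest called per direction. Further genes are described so that every guidance gene is accounted for. Of the 64 partner genes, 61 were measured, and the others were not analysed here. Alternatives covered normalization, filters and floors on low values, the pseudocount, the variance model, the choice of probe set, a replicate block and leaving out arrays.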

Additional observations from a re-analysis of the deposited data

How the results depend on the processing

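The count of guidance genes called depended on the scaling of the arrays, on which arrays entered and on the variance model. With arrays centred on their median, 30 rose, and 25 partner genes rose, while the median of all genes moved to 0.13 and 10436 genes in all were called higher. Array weights gave 23 higher guidance genes, 25 higher partners and 31 lower partners, beside 7518 higher and 4750 lower over all genes. Restricting the test to the 9096 genes above the median left 21 guidance genes tested, of which 4 rose and 11 fell. Of all 9096 genes, 3116 rose and 2409 fell in that test. Leaving out 1 array gave 6 to 14 higher and 9 to 19 lower guidance genes, 6 to 13 higher and 10 to 22 lower partners, and a Thy1 difference of 3.57 to 3.86. Over all genes these fits called 1350 to 4273 higher and 1163 to 3008 lower. Without both arrays numbered 3, an alternative chosen after seeing the data, 1 guidance gene rose and 0 fell, 1 partner rose and 1 fell, and Thy1 at 3.93 no longer passed (adjusted p = 0.0543). Without both arrays numbered 2, with as few arrays, 12 guidance genes rose and 19 fell, beside 4349 and 3116 over all genes. Fewer arrays entered all fits that left arrays out, and the cause of the shifts was not tested. Of the 31 called guidance genes, 15 were called in all 6 fits without 1 array.

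Same-numbered arrays correlated at -0.164, -0.170 and -0.0361 in their deviations from the fraction means. With 3 arrays per fraction these values cannot show whether equal numbers share a preparation, and the labels do not say. With the replicate number as a block, 5 guidance genes rose and 7 fell, 11 of the 31 remained called, and 2 partners rose and 4 fell. Over all genes 931 rose and 548 fell with the block.

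Differences changed sign only in genes not called. Over the fits without 1 array, Epha8 ranged from -0.069 to 0.45, Efna5 from -0.18 to 0.40, Sema4f from -0.24 to 0.65 and Sema6d from -0.22 to 0.13. Robo2 ranged from -0.065 to 0.097, Unc5d from -0.00014 to 0.0045 and Ntn3 from -0.0014 to 0.0033. Without both arrays numbered 2, Efna5 was at -0.29, Nrp1 at -0.17 and Robo2 at -0.045. Array weights gave -0.11 for Efna5 and -0.0017 for Ntn3. Of the 12 housekeeping genes measured, 4 were themselves called higher and 2 lower. Centring on these housekeeping genes gave -0.0022 for Plxnb3, -0.0202 for Robo2, -0.024 for Unc5d, -0.0070 for Ntn5 and -0.025 for Ntn3. Quantile normalization gave -0.0036 for Unc5d, and median centring 0.10 for Sema6d. Without cross-hybridizing probe sets Sema4f was at -0.018. With the mean of all probe sets Sema6d was at 0.30 and Robo3 at -0.038, and with the most variable probe set Sema6d was at 1.23 (adjusted p = 0.0343) and Robo3 at -0.11. Of the remaining results for 65 named genes, 1139 kept direction and call, 190 lost the call and 36 gained it.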
